A study of Mus musculus with 4 samples.

Results

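The metastatic line M1 was compared with the primary line P4, as 1 library against 1 library. Both are mouse cell lines of small cell lung cancer (SCLC), a fast-growing lung tumor. All 4 lines of the study came from the same autochthonous model on a C57BL/6 background, where Adeno-Cre virus given into the trachea deletes conditional Rb1 and Trp53 alleles. M1 was established from a liver metastasis, and P4, like the further lines P1 and P5, from a primary lung tumor. By the design of the series M1 came from an animal that gave no primary line. The labels give lung as the origin of all 4 lines, including M1, and name their genotypes SCLC WT 4 (M1), SCLC WT 3 (P4), SCLC WT 1 (P1) and SCLC WT 2 (P5). These names state no deletion, and that all 4 lines share the Rb1 and Trp53 deletion is taken from the description of the model. The cells grew untreated in RPMI medium with serum, and each line is 1 culture-derived population from 1 tumor. With 1 library a side, line, animal, tumor site and library cannot be told apart, and no test was possible. The values below describe these libraries.

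The compared genes were those with at least 20 counts per 1000000 reads (CPM) in M1 or P4, after rows with the same symbol had been summed. This gave 7037 of 54641 gene symbols. The values corresponded to 11170276 assigned reads in M1 and 13890726 in P4, so that 20 CPM stood for 223 reads in M1 and 278 in P4. The 95% Wilson interval at 20 CPM ran from 17.5 to 22.8 CPM in M1 and from 17.8 to 22.5 CPM in P4. These intervals cover counting error only. Despite this depth, M1 listed 10074 and P4 7985 symbols above 0, whereas P1 listed 17824 and P5 20578 at a similar depth. Genes listed at 0 in M1 or P4 were therefore kept apart from all other genes, and no fold was formed against a 0.

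SCLC is in most cases a neuroendocrine tumor, whose cells carry neuronal and secretory genes. Its subtypes are named after transcription factors such as NEUROD1 and POU2F3 or after the absence of neuroendocrine genes, which goes with YAP1. NEUROD1 and ATOH1 belong to the basic helix-loop-helix (bHLH) factors, which bind to short DNA sites termed E-boxes. NOTCH signaling through HES1 restrains such factors in neural tissue. MHC class I molecules present peptides to CD8+ T cells, and interferons raise their production.

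The label of the lines was first checked against 14 genes of SCLC neuroendocrine identity. M1 listed Ncam1, Neurod1, Uchl1, Insm1, Bex1, Dll3 and Syp above 0, whereas P4 listed only Ncam1. The adhesion molecule Ncam1 had 319 CPM in M1 and 299 CPM in P4 (339.6 in P1, 1057 in P5). The granule protein Chga and the peptide gene Calca were listed at 0 in M1, P4 and P1 and had 26.5 and 183 CPM in P5. The lung lineage factor Nkx2-1 and Pou2f3 were listed at 0 in both M1 and P4. For the deleted genes, Rb1 was at 0 in M1 and P4, whereas P1 had 10.3 CPM and P5 13.2 CPM. Trp53 was listed at 0 in M1 and had 0.144 CPM in P4, with 0.210 CPM in P1 and 0.260 CPM in P5. A conditional allele can leave part of its transcript in place, and other genes were also listed at 0 in M1 and P4, so these values do not settle the state of the alleles.

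M1 carried a set of neural transcription factors that P4 did not list. Of 51 sensory and neural transcription factors in the table, 15 reached 20 CPM in M1 and 1 in P4, and 14 of the 15 were listed at 0 in P4. Over all compared genes, 14.4% were listed at 0 in P4. These 14 passed the filter only through M1, which fixed their direction. Of all 2026 genes with 20 CPM only in M1, 1014 were listed at 0 in P4. The remaining member, Sox4, a factor of progenitor cells, had 645 CPM in M1 and 167 CPM in P4 (211 in P1, 393 in P5), a log2(CPM + 1) difference of 1.94. The members fell into 2 kinds when P1 and P5 were placed beside them. Prrxl1, a homeobox factor of sensory neurons, had 163 CPM in M1 and 0 CPM in P4 (0 in P1, 0 in P5). Lhx3, a LIM homeobox factor of the pituitary and motor neurons, had 147 CPM in M1 and 0 CPM in P4 (0 in P1, 0 in P5). Atoh1, the bHLH factor of inner ear hair cells and Merkel cells, had 120.3 CPM in M1 and 0 CPM in P4 (0 in P1, 0 in P5). These transcripts were seen in 1 of 4 lines.

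The same held for further factors. Neurod1 had 134 CPM in M1 and 0 CPM in P4 (0 in P1, 0.0868 in P5), Uncx 116 CPM in M1 and 0 CPM in P4 (0 in P1, 0 in P5) and Pou4f3, a POU factor of hair cells, 109 CPM in M1 and 0 CPM in P4 (0 in P1, 0 in P5). Neurod6 had 67.5 CPM in M1 and 0 CPM in P4 (0 in P1, 0 in P5), Isl1, a LIM homeobox factor, 52.1 CPM in M1 and 0 CPM in P4 (0.210 in P1, 0 in P5) and Nhlh1 35.7 CPM in M1 and 0 CPM in P4 (0.105 in P1, 0 in P5). In P1 and P5, none of these 9 factors exceeded 0.210 CPM. For the other members, 1 or both of P1 and P5 carried the transcript. Ebf1 had 215 CPM in M1 and 0 CPM in P4 (11.1 in P1, 86.6 in P5), and Sox11, which is expressed in immature neurons, had 167 CPM in M1 and 0 CPM in P4 (20.3 in P1, 142 in P5). Insm1, a zinc finger factor of neuroendocrine cells, had 74.04 CPM in M1 and 0 CPM in P4 (0 in P1, 6.94 in P5). The smaller values belonged to Bhlhe22, with 31.5 CPM in M1 and 0 CPM in P4 (5.67 in P1, 0.955 in P5), and St18, with 29.99 CPM in M1 and 0 CPM in P4 (0 in P1, 7.46 in P5). Of these 5, only Ebf1, Sox11 and Bhlhe22 were listed above 0 in both P1 and P5, whereas Insm1 and St18 were at 0 in P1 as in P4.

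The promoters of the 4 bHLH factors that M1 alone carried are shown because these genes lay together at 0 in P4. The sequences are from RefSeq (build GRCm38.p6), run 5′ to 3′ on the strand of the gene from 250 bases before to 50 bases after its start, and have E-boxes (CANNTG, which reads the same on both strands) in capitals. The positions are chr6:64728875-64729174 for Atoh1 (plus strand), chr2:79456587-79456886 for Neurod1 (minus strand), chr6:55681214-55681513 for Neurod6 (minus strand) and chr1:172057547-172057846 for Nhlh1 (minus strand).
Atoh1: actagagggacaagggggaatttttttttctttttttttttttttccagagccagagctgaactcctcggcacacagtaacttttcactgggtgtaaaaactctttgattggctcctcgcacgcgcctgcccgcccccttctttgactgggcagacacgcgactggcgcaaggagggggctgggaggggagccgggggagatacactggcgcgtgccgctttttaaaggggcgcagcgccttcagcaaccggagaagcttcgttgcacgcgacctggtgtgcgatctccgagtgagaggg
Neurod1: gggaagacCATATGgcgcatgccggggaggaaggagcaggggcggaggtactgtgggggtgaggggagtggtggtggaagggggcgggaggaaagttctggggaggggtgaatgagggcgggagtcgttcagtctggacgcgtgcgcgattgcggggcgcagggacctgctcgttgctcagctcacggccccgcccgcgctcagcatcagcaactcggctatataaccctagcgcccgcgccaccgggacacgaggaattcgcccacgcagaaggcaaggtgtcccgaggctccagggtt
Neurod6: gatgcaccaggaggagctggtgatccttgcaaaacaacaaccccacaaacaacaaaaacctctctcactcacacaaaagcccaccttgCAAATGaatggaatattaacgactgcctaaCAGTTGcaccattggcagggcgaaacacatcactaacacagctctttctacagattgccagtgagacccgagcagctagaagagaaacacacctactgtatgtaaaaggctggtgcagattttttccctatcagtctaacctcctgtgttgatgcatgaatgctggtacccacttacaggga
Nhlh1: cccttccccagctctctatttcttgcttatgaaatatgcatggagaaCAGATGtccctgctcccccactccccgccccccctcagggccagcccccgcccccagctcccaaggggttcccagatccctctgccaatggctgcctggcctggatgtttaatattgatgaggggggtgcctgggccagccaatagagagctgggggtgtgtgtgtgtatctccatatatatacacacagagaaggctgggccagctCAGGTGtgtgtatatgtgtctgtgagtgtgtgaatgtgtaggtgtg
Atoh1 had 0 E-boxes in this window, Neurod1 1 (CATATG), Neurod6 2 (CAAATG and CAGTTG) and Nhlh1 2 (CAGATG and CAGGTG). Of 32851 promoters of 300 bases, 72.3% held at least 1 E-box, so that a match is common and marks no binding.

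Many genes of the neuronal cytoskeleton and neuronal RNA-binding proteins were also listed at 0 in P4. Of 37 in the table, 21 reached 20 CPM in M1 and 6 in P4. Of the 21, 14 were listed at 0 in P4, against 14.4% of all compared genes, and the filter fixed the direction of these 14. Of the 7 above 0 in both lines, 4 had a positive and 3 a negative difference, with 1 higher and 1 lower in M1. Elavl3, a neuronal RNA-binding protein, had 248 CPM in M1 and 0 CPM in P4 (0 in P1, 7.72 in P5). The neurofilament gene Nefm had 227 CPM in M1 and 0 CPM in P4 (0 in P1, 3.47 in P5), and its partner Nefl 77.9 CPM in M1 and 0 CPM in P4 (0 in P1, 0 in P5). Mapt, which encodes tau, had 159.9 CPM in M1 and 0 CPM in P4 (2.52 in P1, 3.64 in P5), and Gap43, a growth cone protein, 104 CPM in M1 and 0 CPM in P4 (1.89 in P1, 7.55 in P5). These genes were all low in P1 and P5 as well. Map1b and Dpysl2 were different, as they were missing only in P4. Map1b, a microtubule-associated protein, had 86.4 CPM in M1 and 0 CPM in P4 (169 in P1, 284 in P5), and Dpysl2 had 63.3 CPM in M1 and 0 CPM in P4 (37.8 in P1, 63.1 in P5). Stmn2 was high in P1, with 44.2 CPM in M1 and 0 CPM in P4 (211 in P1, 0.347 in P5). In the opposite direction, the microtubule regulator Stmn1 had 58.01 CPM in M1 and 253 CPM in P4 (52.7 in P1, 88.2 in P5), a log2 difference of -2.11. The neuronal tubulin Tubb3 had 87.4 CPM in M1 and 10.4 CPM in P4 (13.96 in P1, 10.2 in P5), a log2 difference of 2.96.

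Among 50 neuroendocrine secretory and synaptic genes, 14 reached 20 CPM in M1 and 2 in P4. Of the 14, 10 were listed at 0 in P4 and 2 were higher in M1, and the filter fixed the direction of those that passed only through M1. Higher and lower here mean a log2(CPM + 1) difference of at least 2 among genes above 0 in both lines, which 11.5% of all such genes passed upwards in M1 and 10.4% downwards, and a 0 stood for 5.09% of all compared genes in M1 and for 14.4% in P4. Bex2 had 127 CPM in M1 and 0 CPM in P4 (0 in P1, 9.08 in P5), and Uchl1, a deubiquitinase of neurons and neuroendocrine cells, had 76.1 CPM in M1 and 0 CPM in P4 (5.14 in P1, 66.4 in P5). The vesicle calcium sensor Syt1 had 43.1 CPM in M1 and 0 CPM in P4 (0 in P1, 3.56 in P5), and Grp, which encodes gastrin-releasing peptide, had 30.8 CPM in M1 and 0 CPM in P4 (0 in P1, 0.0868 in P5). Pam, the enzyme that amidates peptide hormones, had 37.8 CPM in M1 and 8.28 CPM in P4 (50.6 in P1, 127 in P5), a log2 difference of 2.06 that became 1.95 with a pseudocount of 2. The granule genes Chga, Chgb, Scg2 and Scg3 were listed at 0 in both M1 and P4.

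**Figure D1:**
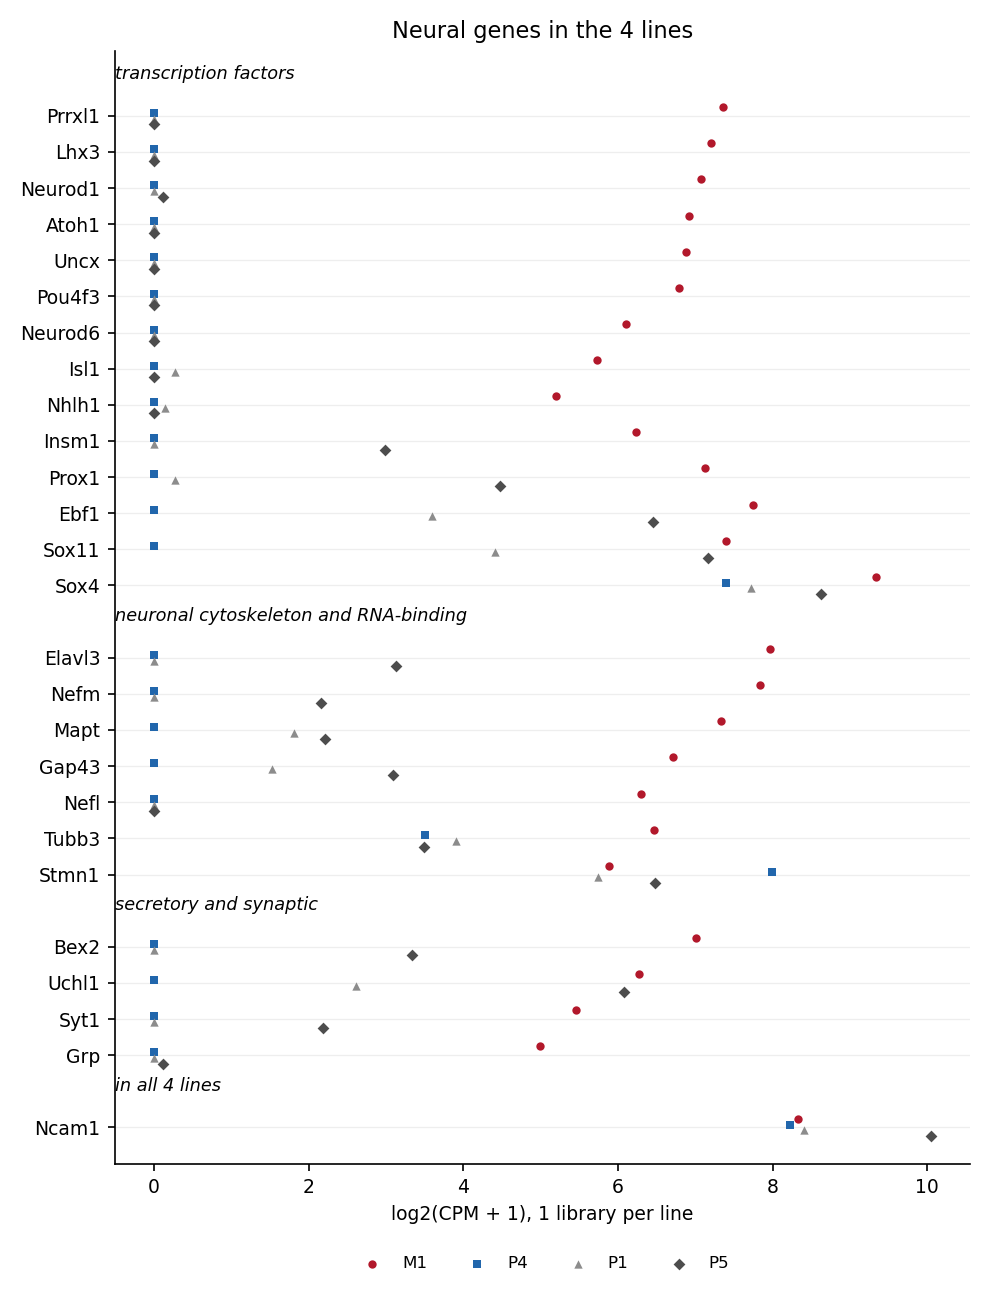
Neural genes by line, plotted as log2(CPM + 1) with 1 point per library (M1 circles, P4 squares, P1 and P5 triangles and diamonds). For the first 9 factors the M1 point stands alone on the right, for Sox11, Ebf1 and Uchl1 P4 is at 0 while P1 and P5 are above it, and Ncam1 is high in every line.

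Subtype and lineage factors of SCLC were a mixed list. Of 20 in the table, 15 reached 20 CPM, and 6 of these were listed at 0 in P4, against 14.4% of all compared genes. These 6 passed the filter only through M1, which fixed their direction. Among them, Atoh1, Neurod1 and Insm1 were already counted with the neural factors above. Of the 9 above 0 in both lines, 1 was higher and 2 lower in M1, against 11.5% and 10.4% of all genes. Nfia, a nuclear factor I gene, had 147 CPM in M1 and 1.30 CPM in P4 (37.2 in P1, 123 in P5), a log2 difference of 6.01, with P1 and P5 nearer M1. Its relatives Nfib and Nfix differed less. Nfib had 164 CPM in M1 and 259 CPM in P4 (335 in P1, 496 in P5), and Nfix 105 CPM in M1 and 123 CPM in P4 (316 in P1, 488 in P5). Mycl, which is amplified in a part of human SCLC, had 43.1 CPM in M1 and 0 CPM in P4 (0.210 in P1, 9.37 in P5), and the related Myc had 18.9 CPM in M1 and 1.15 CPM in P4 (7.35 in P1, 3.38 in P5), under 20 CPM in both lines. Sox2, a stem cell and neuroendocrine factor, had 59.4 CPM in M1 and 0 CPM in P4 (20.6 in P1, 28.1 in P5), and Prox1 139 CPM in M1 and 0 CPM in P4 (0.210 in P1, 21.2 in P5). On the other side, the transcriptional co-activator Yap1 had 0.895 CPM in M1 and 30.2 CPM in P4 (51.3 in P1, 88.00 in P5), a log2 difference of -4.04. The endoderm factor Foxa1 had 0.895 CPM in M1 and 26.3 CPM in P4 (16.5 in P1, 27.2 in P5), a log2 difference of -3.85. P1 and P5 were nearer P4 for both Yap1 and Foxa1.

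The Hippo pathway is the kinase cascade that holds YAP1 out of the nucleus. Of 29 pathway and YAP1 target genes, 18 reached 20 CPM, and 3 of these were listed at 0 in P4, against 14.4% of all compared genes. Of the 15 above 0 in both lines, 2 were higher and 3 lower in M1, against 11.5% and 10.4% of all genes, and their median log2 difference was 0.13. The list as a whole was thus near all genes, and only its single members are described. Tead1, the DNA-binding partner of YAP1, had 2.78 CPM in M1 and 25.6 CPM in P4 (69.1 in P1, 115 in P5), a log2 difference of -2.81. The junction protein Amot had 12.3 CPM in M1 and 61.7 CPM in P4 (16.1 in P1, 26.7 in P5), a log2 difference of -2.24. The YAP1 relative Wwtr1 had 50.7 CPM in M1 and 129 CPM in P4 (93.1 in P1, 126 in P5), which did not reach a difference of 2. The target genes Ccn1 and Ccn2 did not follow Yap1. Ccn1 had 23.2 CPM in M1 and 0.216 CPM in P4 (9.66 in P1, 25.9 in P5) and Ccn2 20.2 CPM in M1 and 0 CPM in P4 (8.29 in P1, 56.2 in P5). The kinase Lats1 was listed at 0 only in P4, with 22.1 CPM in M1 and 0 CPM in P4 (15.01 in P1, 20.1 in P5).

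The zinc finger repressors of epithelial genes Zeb1 and Zeb2 were also lower or not listed in M1. Zeb1 had 17.6 CPM in M1 and 74.9 CPM in P4 (59.8 in P1, 97.98 in P5), a log2 difference of -2.03, and Zeb2 had 0 CPM in M1 and 27.4 CPM in P4 (15.3 in P1, 42.1 in P5). The Zeb1 call ended with a pseudocount of 2 (-1.97), with the median difference set to 0 (-1.97) and without the 2 rows AY036118 and CT010467,1 (-1.96). The epithelial cadherin Cdh1 had 28.5 CPM in M1 and 0 CPM in P4 (14.6 in P1, 49.6 in P5), and the junction protein Jup had 100.4 CPM in M1 and 18.6 CPM in P4 (36.7 in P1, 28.6 in P5), a log2 difference of 2.37. These 2 do not stand for their list. Of 35 epithelial keratin and junction genes, 13 reached 20 CPM, and 2 were listed at 0 in P4, against 14.4% of all compared genes. Of the 11 above 0 in both lines, only Jup was higher. The difference was positive in 4 and negative in 7, with a median of -0.06. Of the 24 EMT factors and mesenchymal genes, 12 reached 20 CPM, with a median log2 difference of -0.71 over those above 0 in both lines. Over all genes above 0 in both lines the median was -0.06. Only Zeb1 passed a difference of 2 in this group, and Zeb2 was the only member listed at 0. Among integrins, Itga6 had 119 CPM in M1 and 17.6 CPM in P4 (197 in P1, 42.5 in P5) and Itgb1 45.3 CPM in M1 and 7.92 CPM in P4 (375 in P1, 711 in P5), both higher in M1, and Itgb4 had 0 CPM in M1 and 37.8 CPM in P4 (17.6 in P1, 0.868 in P5). For Itgb1, P1 and P5 lay above both lines.

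In the NOTCH pathway, 15 genes reached 20 CPM. P4 had a 0 for 4 of these, against 14.4% of all compared genes, and M1 for 1, against 5.09%. Of the 10 above 0 in both lines, 2 were higher and 2 lower in M1, against 11.5% and 10.4% of all genes. The 4 genes at 0 in P4 encode ligands or ligand-like proteins and passed the filter only through M1, which fixed their direction. The ligand genes Dll1 and Dll4 and the ligand-like Dlk1 were listed at 0 in both M1 and P4. Jag2 had 66.4 CPM in M1 and 0 CPM in P4 (7.66 in P1, 5.29 in P5), Dlk2 65.5 CPM in M1 and 0 CPM in P4 (12.6 in P1, 7.98 in P5), Dll3 25.4 CPM in M1 and 0 CPM in P4 (0.105 in P1, 2.86 in P5) and Jag1 22.8 CPM in M1 and 0 CPM in P4 (13.3 in P1, 17.5 in P5). Of the receptors, Notch2 had 54.97 CPM in M1 and 42.04 CPM in P4 (28.8 in P1, 56.8 in P5), and Notch1, Notch3 and Notch4 were listed at 0 in M1 and P4. Rbpj, the DNA-binding factor of the pathway, had 162 CPM in M1 and 38.9 CPM in P4 (127 in P1, 95.6 in P5), a log2 difference of 2.03 that became 1.97 without mitochondrial, ribosomal, histone and small RNA rows. The repressor Hes1, a target of the pathway, had 399.6 CPM in M1 and 1530.1 CPM in P4 (25.9 in P1, 63.5 in P5), a log2 difference of -1.93 that stayed under the threshold. Hes1 was thus higher in both M1 and P4 than in P1 and P5. Psen2, a catalytic part of the gamma-secretase that releases the receptor, had 2.24 CPM in M1 and 41.2 CPM in P4 (13.2 in P1, 14.5 in P5), a log2 difference of -3.70, with P1 and P5 between the lines.

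The study centers on MHC class I and ERBB2, and these genes are given for all lines. The receptor tyrosine kinase gene Erbb2 had 15.8 CPM in M1 and 8.35 CPM in P4 (22.5 in P1, 12.9 in P5), under 20 CPM in both lines. The class I heavy chain H2-K1 had 112 CPM in M1 and 18.9 CPM in P4 (30.5 in P1, 43.7 in P5), a log2 difference of 2.51. H2-D1 had 159 CPM in M1 and 35.2 CPM in P4 (54.1 in P1, 69.9 in P5), a log2 difference of 2.14. M1 was the highest of the 4 lines for both heavy chains. The light chain B2m had 242 CPM in M1 and 175 CPM in P4 (174 in P1, 377 in P5), a log2 difference of 0.47, and was highest in P5. The less variable class I genes H2-Q4, H2-Q7 and H2-T23 were listed at 0 in P4 and had 66.7, 22.9 and 21.8 CPM in M1, whereas none of them exceeded 1.39 CPM in P1 or P5. Class I genes are similar in sequence, and reads shared between them can be split by the counting, so that single members are uncertain.

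Of the 24 genes of MHC class I presentation, 17 reached 20 CPM. P4 had a 0 for 5 of these, against 14.4% of all compared genes, and M1 for 1, against 5.09%. The 5 genes at 0 in P4 passed the filter only through M1, which fixed their direction. Of the 11 above 0 in both lines, 3 were higher in M1, against 11.5% of all such genes, and 8 lay between. The immunoproteasome subunits Psmb8 and Psmb9 were listed at 0 in P4. Psmb8 had 42.2 CPM in M1 and 0 CPM in P4 (2.31 in P1, 21.3 in P5) and Psmb9 29.5 CPM in M1 and 0 CPM in P4 (0.315 in P1, 2.43 in P5). The third inducible subunit, Psmb10, had 58.4 CPM in M1 and 26.7 CPM in P4 (41.99 in P1, 23.2 in P5). Tapbpl, which edits the bound peptides, had 26.1 CPM in M1 and 1.08 CPM in P4 (17.4 in P1, 18.7 in P5), a log2 difference of 3.70. Neither M1 nor P4 listed the peptide transporter gene Tap1 above 0, whereas P1 had 5.88 CPM and P5 8.07 CPM. In the opposite direction, the peptide-trimming enzyme Erap1 had 0 CPM in M1 and 40.2 CPM in P4 (6.42 in P1, 12.8 in P5), and the chaperone Canx had 90.4 CPM in M1 and 357 CPM in P4 (454 in P1, 464 in P5), a log2 difference of -1.97. P1 and P5 were on the side of P4 for Canx.

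Interferon response genes showed both directions. Of 44 such genes, 17 reached 20 CPM, and 5 of these were listed at 0 in P4, against 14.4% of all compared genes. Of the 12 above 0 in both lines, 3 were higher and 2 lower in M1, against 11.5% and 10.4% of all genes. Ifi27 had 97.2 CPM in M1 and 0.144 CPM in P4 (15.3 in P1, 51.5 in P5), a log2 difference of 6.42. The transcription factor Irf1 had 46.2 CPM in M1 and 0.0720 CPM in P4 (47.1 in P1, 68.99 in P5), a log2 difference of 5.46. P1 and P5 carried Irf1 at or above the level of M1, so that P4 stood apart. Rsad2, an antiviral enzyme, had 38.05 CPM in M1 and 0 CPM in P4 (0 in P1, 1.74 in P5), and the ubiquitin-like Isg15 24.98 CPM in M1 and 0 CPM in P4 (1.78 in P1, 21.5 in P5). The kinase Eif2ak2, a sensor of double-stranded RNA, had 5.64 CPM in M1 and 48.9 CPM in P4 (27.3 in P1, 31.9 in P5), a log2 difference of -2.91. Mavs, the adaptor of the RNA sensors, had 21.7 CPM in M1 and 90.1 CPM in P4 (43.8 in P1, 32.2 in P5), a log2 difference of -2.01 that stayed under 2 with a pseudocount of 2 (-1.96), with the median set to 0 (-1.95) and without AY036118 and CT010467,1 (-1.94). The median log2 difference of the group was 0.27, against -0.06 for all genes.

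Leukocyte transcripts stood beside these differences in M1. Of 21 macrophage and monocyte markers, 7 reached 20 CPM in M1 and 0 in P4, so that the filter fixed the direction of all 7. Of these, 5 were listed at 0 in P4, against 14.4% of all compared genes, and 2 were higher in M1. The count itself thus carries no weight, and the values are given as a description. The summed level of the 21 markers was 319.6 CPM in M1 and 14.4 CPM in P4, with 15.2 CPM in P1 and 17.2 CPM in P5. In P4 the sum came almost wholly from Cd14, which had 0 CPM in M1 and 14.3 CPM in P4 (2.52 in P1, 3.91 in P5). Lysozyme, Lyz2, had 47.4 CPM in M1 and 0.0720 CPM in P4 (0.735 in P1, 0.0868 in P5). The complement genes C1qa and C1qb had 40.1 and 26.5 CPM in M1 and were listed at 0 in P4, P1 and P5. The receptor Csf1r had 28.02 CPM in M1 and 0 CPM in P4 (7.02 in P1, 8.94 in P5). The defining markers Adgre1, Itgam, Cx3cr1 and Mpeg1 were listed at 0 in M1 and P4. In these bulk libraries, fewer cells of a type and less RNA per cell cannot be told apart.

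Of 22 lymphocyte and plasma cell markers, only the immunoglobulin light chain gene Igkc reached 20 CPM, with 179 CPM in M1 and 0.0720 CPM in P4 (0 in P1, 0 in P5), a log2 difference of 7.39. The heavy chain genes Ighm and Igha did not exceed 0.0895 CPM in M1, and the pan-leukocyte gene Ptprc was listed at 0 in M1 and P4. The part of these transcripts in the MHC class I and interferon values was not tested. Hepatocyte markers bear on the liver origin of M1. Albumin and the apolipoprotein genes Apoa1 and Apob were listed at 0 in M1 and P4, and of 15 markers only the transcription factor Hnf4a reached 20 CPM, with 27.7 CPM in M1 and 21.5 CPM in P4 (36.1 in P1, 0 in P5). Of 12 fibroblast markers, the collagen gene Col1a2 had 38.4 CPM in M1 and 33.6 CPM in P4 (7.66 in P1, 206 in P5) and Mgp 0 CPM in M1 and 22.7 CPM in P4 (14.9 in P1, 202 in P5), and Dcn, Pdgfra and Pdgfrb were listed at 0 in both M1 and P4. All 10 endothelial markers were under 1 CPM in both lines.

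**Figure D2:**
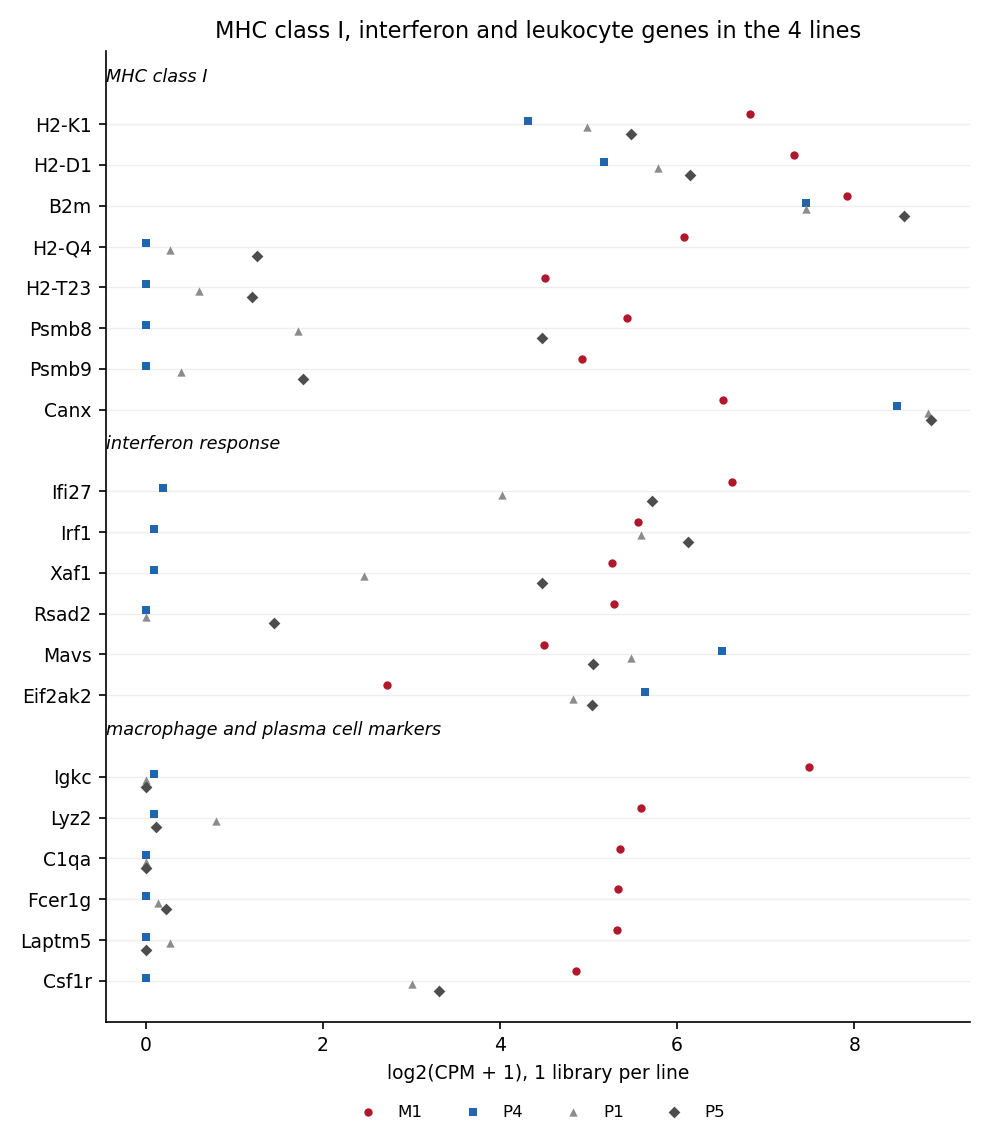
MHC class I, interferon response and leukocyte marker genes by line, plotted as log2(CPM + 1) with 1 point per library. M1 lies to the right of the other 3 lines for H2-K1, H2-D1 and the leukocyte markers, whereas for Irf1 it is P4 that lies apart, at 0.0720 CPM.

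Across the whole comparison, 5665 genes were above 0 in both lines, and 1372 were listed at 0 in 1 of them. A difference of at least 2 on the log2(CPM + 1) scale, about 4-fold for genes well above 1 CPM, was used to call a gene higher or lower. By this rule, 651 genes (11.5%) were higher and 591 (10.4%) lower in M1, and 4423 lay between. The quartiles of the difference were -0.98 and 0.90. Beside these, M1 listed 358 genes (5.09%) at 0 and P4 1014 (14.4%). The filter fixes the direction of genes that are high in 1 line only. There were 2026 genes with 20 CPM only in M1, 1318 only in P4 and 3693 in both. Among the last, 60 (1.62%) were higher and 67 (1.81%) lower in M1, and all other called genes were under 20 CPM in the lower line. Of the genes higher in M1, 186 had under 1 CPM in P4, and of those lower in M1, 135 had under 1 CPM in M1. At the edge of the filter, 188 genes had their higher value between 20 and 21 CPM, of which 26 were at 0 in M1 and 61 in P4. Just outside, between 19 and 20 CPM, were 158 genes, with 33 at 0 in M1 and 59 in P4.

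**Figure D3:**
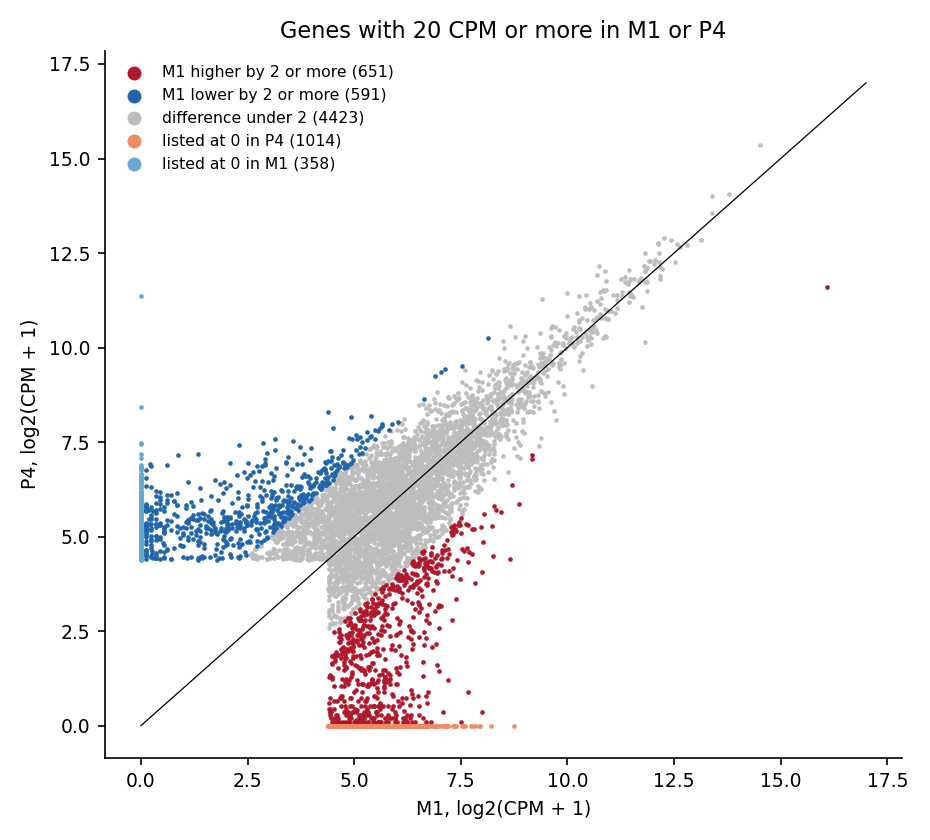
M1 (horizontal axis) against P4 (vertical axis) for the 7037 genes with 20 CPM or more in either line, both as log2(CPM + 1), with the line of equal values. Genes listed at 0 lie on the axes, and of the genes off the line of equal values, 186 of 651 higher ones had under 1 CPM in P4 and 135 of 591 lower ones under 1 CPM in M1.

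The genes with the largest differences had few reads in 1 line. Myo6, an unconventional myosin, had 255 CPM in M1 and 0.288 CPM in P4 (72.8 in P1, 45.8 in P5), a log2 difference of 7.63. The peroxidase Gpx1 had 203 CPM in M1 and 0.864 CPM in P4 (216 in P1, 273 in P5), a log2 difference of 6.78, and the dynactin subunit Actr10 had 135 CPM in M1 and 0.288 CPM in P4 (66.2 in P1, 45.5 in P5). Socs2, a suppressor of cytokine signaling, had 74.5 CPM in M1 and 0.0720 CPM in P4 (41.8 in P1, 58.9 in P5), and the polarity protein Pard3 74.3 CPM in M1 and 0.0720 CPM in P4 (127 in P1, 69.7 in P5). P4 lacked what the other 3 lines had in each of these cases. The same was true of Sh3kbp1, Nomo1, Uba6, Mtx2, Synj2bp, Pja2 and Gmcl1, whose M1 values lay between 70.2 and 104 CPM and whose P4 values did not exceed 0.504 CPM. Ccdc36 had 91.01 CPM in M1 and 0.216 CPM in P4 (6.84 in P1, 9.07 in P5), with P1 and P5 nearer P4.

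Among the genes lower in M1, the mitochondrial protease Afg3l2 had 0.0895 CPM in M1 and 107 CPM in P4 (28.7 in P1, 22.5 in P5), a log2 difference of -6.64. Tmem98 had 0.0895 CPM in M1 and 79.9 CPM in P4 (60.04 in P1, 28.3 in P5), Ccdc6 0.179 CPM in M1 and 79.2 CPM in P4 (31.5 in P1, 60.7 in P5) and Epb41l4a 0.269 CPM in M1 and 73.00 CPM in P4 (77.3 in P1, 24.2 in P5). Ddr2, a collagen receptor tyrosine kinase, had 0.0895 CPM in M1 and 53.4 CPM in P4 (15.6 in P1, 60.6 in P5), a log2 difference of -5.64. In these genes M1 lacked what the other lines had, as it did in Tmem242, Rmnd5a, Ly6c1, Ckap2 and Pank1, whose M1 values did not exceed 1.52 CPM and whose P4 values lay between 54.6 and 145 CPM. Pcca, a subunit of propionyl-CoA carboxylase, was instead high in P4 and low in the other lines, with 0.179 CPM in M1 and 115 CPM in P4 (6.88 in P1, 7.47 in P5), as were Cpne1, with 0.0895 CPM in M1 and 56.7 CPM in P4 (4.62 in P1, 3.38 in P5), and Arpin, with 0.0895 CPM in M1 and 55.3 CPM in P4 (5.88 in P1, 5.73 in P5). Cox6c2, with 0.156 CPM in M1 and 121 CPM in P4 (2.54 in P1, 6.17 in P5), and Srp54a, with 0.813 CPM in M1 and 143 CPM in P4 (40.2 in P1, 41.6 in P5), have near-identical copies in the genome and are uncertain.

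Genes listed at 0 were in part of the same kind. Cops4, a subunit of the COP9 signalosome, had 0 CPM in M1 and 176 CPM in P4 (67.5 in P1, 52.2 in P5), and the chemokine Cx3cl1 had 0 CPM in M1 and 117 CPM in P4 (25.1 in P1, 25.9 in P5). Plin3, a lipid droplet protein, had 0 CPM in M1 and 99.9 CPM in P4 (95.3 in P1, 66.3 in P5), and the membrane-shaping protein Bin1 0 CPM in M1 and 94.5 CPM in P4 (38.9 in P1, 60.1 in P5). All of these were present in P1 and P5 and missing in M1. Emc1, a subunit of the membrane protein insertase of the endoplasmic reticulum, had 0 CPM in M1 and 144 CPM in P4 (4.65 in P1, 7.90 in P5), so that P4 was the line apart. Among genes listed at 0 in P4, Ccer2 had 243 CPM in M1 and 0 CPM in P4 (0 in P1, 0 in P5) and Ankrd24 193 CPM in M1 and 0 CPM in P4 (4.72 in P1, 9.11 in P5), both low or at 0 in P1 and P5. Nrep had 186 CPM in M1 and 0 CPM in P4 (23.6 in P1, 62.6 in P5). Amd-ps3, a named pseudogene, and mt-Nd4l, which overlaps mt-Nd4 on the mitochondrial genome, had 296 and 211 CPM in M1, and their reads can be assigned to other genes by the counting.

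How often a 0 fell on a gene that the other lines carried was measured with P1 and P5. Among 5536 genes that reached 20 CPM in each of them, M1 listed 317 (5.73%) at 0 and P4 673 (12.2%). The share depended on the level. Between 20 and 30 CPM it was 16.2% in M1 and 29.6% in P4. Between 50 and 100 CPM it was 3.13% in M1 and 8.65% in P4, and between 100 and 200 CPM 2.02% in M1 and 2.45% in P4. None of 258 genes over 500 CPM was at 0 in either line. The genes at 0 in both lines numbered 153, which was 48.3% of those at 0 in M1 and 22.7% of those at 0 in P4. A gene near 20 CPM was thus often at 0 in these libraries. The neural factors that M1 alone carried had no level in P1 or P5 to set against these shares.

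**Figure D4:**
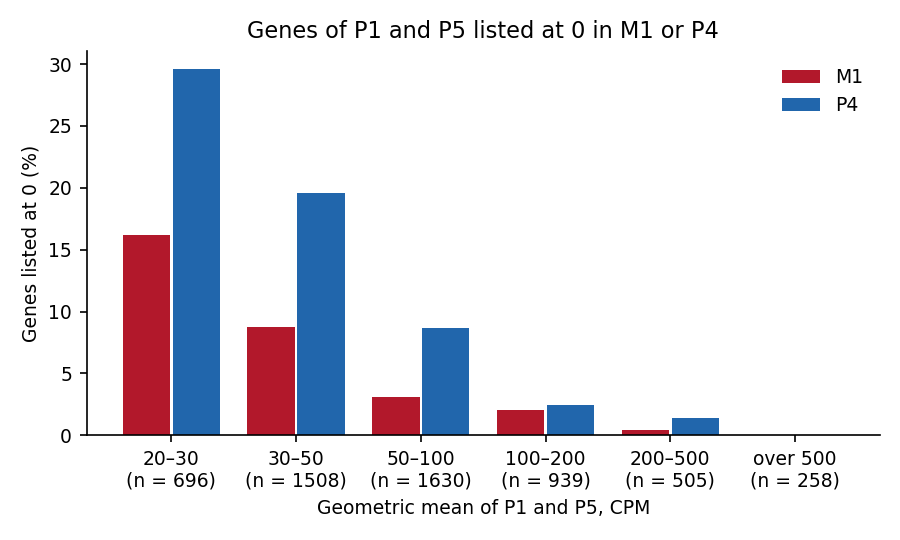
Share of genes listed at 0 in M1 (left bars) and P4 (right bars), by the geometric mean of their CPM in P1 and P5, for genes that reached 20 CPM in each of those lines. The share is higher in P4 than in M1 in each class up to 500 CPM, from 16.2% and 29.6% in the lowest class to 0 in both above 500 CPM.

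P1 and P5 were then placed beside the called genes. By the design each primary line came from its own mouse, but the column names of P1 and P5 share a number of unstated meaning that M1 and P4 do not carry, so that they may not be 2 independent references. Nearness was judged by the absolute difference on the log2(CPM + 1) scale. For the 651 genes higher in M1, both P1 and P5 were nearer M1 in 482 (74.0%) and nearer P4 in 99 (15.2%). For the 591 genes lower in M1, they were nearer M1 in 134 (22.7%) and nearer P4 in 360 (60.9%). In both directions, the line with the low value was thus more often the one apart from P1 and P5. P1 and P5 list more symbols above 0 than M1 and P4, and the part of this in the result was not tested. In 173 of the 651 and 139 of the 591 genes, P1 and P5 lay both above or both below M1 and P4. Of the genes listed at 0 in P4, P1 and P5 were nearer M1 in 599 (59.1%), and 272 had at least 20 CPM in M1, P1 and P5. Of those listed at 0 in M1, they were nearer P4 in 220 (61.5%), and 83 had at least 20 CPM in P4, P1 and P5. Over all pairs of lines, the share of genes past a difference of 2 was 21.9% for M1 against P4, 22.3% for M1 against P1, 22.7% for M1 against P5, 24.4% for P4 against P1 and 25.1% for P4 against P5. M1 against P4 was the lowest of these 5, and only P5 against P1 was far lower, with 5.53%. Among genes with 20 CPM in both lines the share was 3.44% for M1 against P4, between 5.71% and 8.01% for M1 or P4 against P1 or P5, and 1.08% for P5 against P1. A large share of differences was thus common to every pair with M1 or P4.

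**Figure D5:**
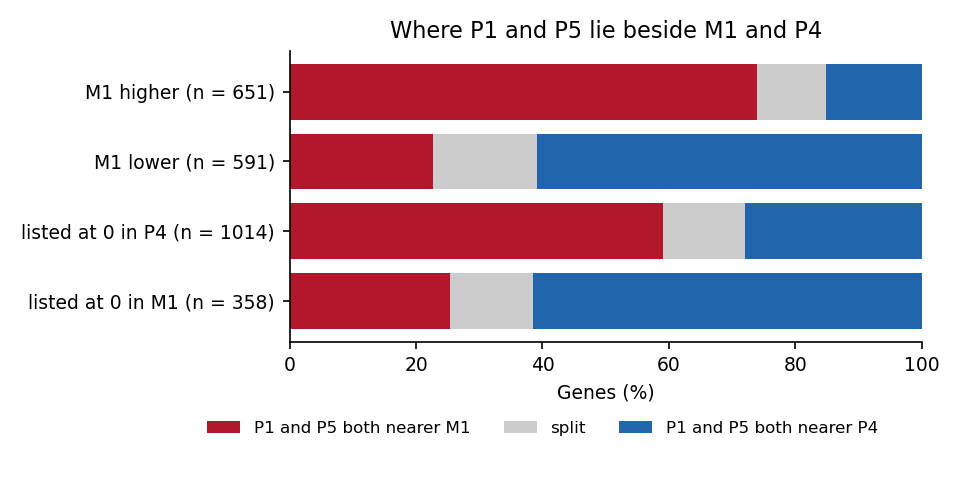
Share of genes by where P1 and P5 lie, for genes higher or lower in M1 and genes listed at 0 in P4 or M1. The bars show both nearer M1, split, and both nearer P4, and P1 and P5 are nearer M1 for most genes higher in M1 and nearer P4 for most genes lower in M1.

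A smaller set was carried by only 1 of the lines. Its members had at least 20 CPM in 1 line, 0 in the other and under 1 CPM in P1 and P5. There were 130 such symbols for M1 and 33 for P4. The M1 symbols were drawn from the 1014 compared genes listed at 0 in P4, and the P4 symbols from the 358 listed at 0 in M1. The counts thus have unequal bases, and how far this accounts for their difference was not tested. Of the M1 symbols, 75 were neither predicted genes nor named pseudogenes, and of the P4 symbols 5 were. The 9 neural factors that exceeded 0.210 CPM in neither P1 nor P5 belonged to the M1 set. The P4 set consisted mainly of pseudogenes and predicted genes, and its named members were Hist1h3f, a histone gene with 52.7 CPM, the small nucleolar RNA Snora74a with 44.9 CPM, Fbxo15 with 25.99 CPM, Hgs with 25.7 CPM and Fam227b with 24.98 CPM. These 5 were listed after their values were seen, apart from Hist1h3f and Snora74a, which are members of a gene list.

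Single proliferation genes differed in both directions. Of 47 mitotic genes, 45 reached 20 CPM, and 3 of these were listed at 0 in M1, against 5.09% of all compared genes. Of the 42 above 0 in both lines, 4 were higher and 6 lower in M1, against 11.5% and 10.4% of all genes. Their median log2 difference was -0.75, against -0.06 for all genes. The kinetochore motor Cenpe had 6.27 CPM in M1 and 176 CPM in P4 (473 in P1, 236 in P5), a log2 difference of -4.61, and the checkpoint protein Mad2l1 had 7.79 CPM in M1 and 191 CPM in P4 (33.9 in P1, 25.2 in P5), a log2 difference of -4.45. The condensin subunits Ncaph and Ncapg were listed at 0 in M1, with 135 and 28.7 CPM in P4. In the other direction, cyclin B2, Ccnb2, had 81.5 CPM in M1 and 0.792 CPM in P4 (65.3 in P1, 22.3 in P5), a log2 difference of 5.52, and the kinase Plk1 had 26.8 CPM in M1 and 1.22 CPM in P4 (88.6 in P1, 52.8 in P5), a log2 difference of 3.64. The proliferation marker Mki67 had 76.3 CPM in M1 and 194 CPM in P4 (499.5 in P1, 290.5 in P5), a log2 difference of -1.33. For Ccnb2 and Plk1, P1 and P5 lay on the side of M1, and for Cenpe on the side of P4.

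Of 47 DNA replication genes, 36 reached 20 CPM with a median difference of -0.16. The clamp Pcna had 208 CPM in M1 and 487 CPM in P4 (194 in P1, 105 in P5), the clamp loader subunits Rfc2 and Rfc3 had 65.4 CPM in M1 and 5.47 CPM in P4 (67.8 in P1, 45.9 in P5) and 20.7 CPM in M1 and 153 CPM in P4 (97.3 in P1, 56.4 in P5), and the origin factor Orc1 had 0 CPM in M1 and 39.6 CPM in P4 (7.66 in P1, 4.86 in P5). Rfc2 and Rfc3 thus differed in opposite directions, by 3.36 and -2.83. Of 43 p53 targets, CDK inhibitors and cyclins, 32 reached 20 CPM. P4 had a 0 for 3 of these 32, against 14.4% of all compared genes. M1 had a 0 for 1 of them, against 5.09%. Of the 28 above 0 in both lines, 4 were higher and 2 lower in M1, against 11.5% and 10.4% of all genes. The list did not stand out from all genes, and only single members are described. The CDK inhibitor Cdkn1a had 138 CPM in M1 and 37.4 CPM in P4 (25.5 in P1, 24.6 in P5), a difference of 1.85, and was above P1 and P5 in both lines. Cyclin D3, Ccnd3, had 0.269 CPM in M1 and 48.8 CPM in P4 (111 in P1, 148 in P5), a difference of -5.29. Its value in M1 was the exception among the 4 lines.

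Receptor and output genes of growth factor signaling gave mixed values. Of 43 receptor tyrosine kinases and ERBB ligands, 16 reached 20 CPM. Met, the receptor of hepatocyte growth factor, had 28.3 CPM in M1 and 113 CPM in P4 (88.8 in P1, 33.8 in P5), a log2 difference of -1.96, and the ERBB ligand Ereg had 24.3 CPM in M1 and 77.03 CPM in P4 (33.4 in P1, 15.3 in P5), a difference of -1.63. Fgfr2 had 0 CPM in M1 and 40.96 CPM in P4 (3.36 in P1, 8.07 in P5), and the neurotrophin receptor Ntrk3 27.8 CPM in M1 and 0 CPM in P4 (0.315 in P1, 16.6 in P5). Of the genes that follow or carry ERK signaling, Egr1, an immediate early gene, had 93.8 CPM in M1 and 7.70 CPM in P4 (185 in P1, 240.04 in P5), a difference of 3.45, and the kinase Braf had 36.3 CPM in M1 and 4.32 CPM in P4 (27.1 in P1, 38.5 in P5), a difference of 2.81. P1 and P5 were nearer M1 for both. The phosphatase Dusp6 had 9.13 CPM in M1 and 33.8 CPM in P4 (12.7 in P1, 132 in P5), a difference of -1.78. Among the frizzled receptors of WNT, Fzd6 had 67.4 CPM in M1 and 2.66 CPM in P4 (6.82 in P1, 108 in P5) and Fzd5 0.0895 CPM in M1 and 51.6 CPM in P4 (11.7 in P1, 15.3 in P5), differences of 4.22 and -5.59.

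Metabolic and stress genes differed in single members. Of 37 genes of cholesterol and fatty acid synthesis, 27 reached 20 CPM, and 6 of these were listed at 0 in P4, against 14.4% of all compared genes. Of the 21 above 0 in both lines, 2 were higher and 4 lower in M1, against 11.5% and 10.4% of all genes. Their median log2 difference was 0.18. Among those at 0 in P4 were the mevalonate enzymes Mvk, with 20.5 CPM in M1 and 0 CPM in P4 (32.6 in P1, 36.4 in P5), and Pmvk, with 38.6 CPM in M1 and 0 CPM in P4 (36.2 in P1, 41.7 in P5). These were present in P1 and P5. The lipid regulator Srebf1 had 45.4 CPM in M1 and 8.28 CPM in P4 (3.50 in P1, 13.3 in P5), a log2 difference of 2.32. The amino acid transporter Slc7a5 had 48.8 CPM in M1 and 4.82 CPM in P4 (3.15 in P1, 2.69 in P5), a difference of 3.10, and the serine enzyme Psph had 99.01 CPM in M1 and 14.2 CPM in P4 (9.55 in P1, 22.4 in P5), a difference of 2.72. M1 was the highest of the 4 lines for both. The transaminase Got1 had 9.58 CPM in M1 and 124 CPM in P4 (46.7 in P1, 34.5 in P5), a difference of -3.56, and the stress factor Atf3 had 11.5 CPM in M1 and 77.2 CPM in P4 (3.46 in P1, 7.98 in P5), a difference of -2.64, with P4 the highest line. Igf2bp1, an RNA-binding protein of fetal tissues, had 10.9 CPM in M1 and 182 CPM in P4 (142 in P1, 44.7 in P5), a difference of -3.94. Pvr, the ligand of the receptors TIGIT and CD226, had 1.88 CPM in M1 and 37.7 CPM in P4 (33.6 in P1, 54.4 in P5), a difference of -3.75.

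Ribosomal protein and oxidative phosphorylation genes mostly lay between the thresholds. Most of them, and of the S100, annexin and galectin genes, had 20 CPM in both lines. Among all genes with 20 CPM in both lines only 3.44% passed a difference of 2, so that the small counts of called genes are not particular to these lists. Of 83 cytosolic ribosomal protein rows, 80 lay between the thresholds, with a median log2 difference of -0.18. The 3 exceptions were the copies Rps3a2 and Rps3a3, higher in M1, and Rpl6l, lower in M1, whose reads can be split with their parent genes. Of 79 nuclear genes of oxidative phosphorylation, 73 lay between, with a median of -0.06. The 20 S100, annexin and galectin genes held no gene past a difference of 2, and Anxa11 was listed at 0 in P4. S100a6 had 10787 CPM in M1 and 11985 CPM in P4 (7051 in P1, 4756 in P5). The mitochondrially encoded mt-Nd2 had 14035 CPM in M1 and 17214 CPM in P4 (10316 in P1, 8836 in P5). CPM are not corrected for transcript length, so these values compare lines and not genes. The table's largest rows took a large share of the libraries. AY036118 had 70054 CPM in M1 and 3126 CPM in P4 (31428 in P1, 49682 in P5), and CT010467,1 had 23473 CPM in M1 and 42337 CPM in P4 (1515 in P1, 1289 in P5). Both rows change the scale of all other values, and the calls without them are given with the alternatives.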

How the data were processed

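RNA of 4 untreated murine SCLC lines was sequenced, with 1 library per line. The authors deposited CPM values for every gene, and each column adds up to 1000000. Per the submitters' processing notes the build is mm10, and the aligner and counting tool of the table are not given in the sources used here. The labels name a total RNA kit, whereas the methods name a 3′ mRNA kit. If the kit reads 3′ ends, CPM depend little on transcript length. The table had 54838 rows. The 85 rows without a symbol were left out and held at most 0.0130% of a library, and 109 symbols on several rows were summed. The most frequent value above 0 was taken as 1 read. With a tolerance of 0.001, 88.9% of the values above 0 in M1 and 88.6% in P4 were whole reads, so no count model was used. A count of 3 reads would be 0.269 CPM in M1 and 0.216 CPM in P4.

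Differences are M1 minus P4 on log2(CPM + 1), which understates the change of genes near 0. Genes needed 20 CPM in M1 or P4, and a difference of 2 was called. There is no replicate, so no test, p-value or error between replicates is given. The 28 gene lists, 7 marker lists and the comparison itself were chosen with earlier results of these data known. Named genes were Rb1, Trp53, Erbb2, B2m, H2-K1 and H2-D1, the 15 largest differences in each direction, the 12 highest genes listed at 0 in each line, the 10 highest genes of each line, and from each list up to 5 members in each direction with the largest difference and those listed at 0 in 1 line. Some genes that this rule takes are not reported here, but they count in the totals. Other genes named, such as list members under 20 CPM or with smaller differences, were chosen after their values were seen. Gene positions and promoters were taken from RefSeq (GRCm38.p6), which matched 6856 of the 7037 symbols by symbol or synonym. The code of the classification was run on simulated counts with large changes and zeros put in. This checks the code only and does not bear on the genes that these libraries list at 0. Python 3.11.15, pandas 2.3.3, numpy 2.4.6, scipy 1.17.1 and matplotlib 3.10.9 were used.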

Additional observations from a re-analysis of the deposited data

How the results depend on the processing

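The counts followed the minimum CPM and the threshold of the call. With a minimum of 50 CPM, 309 genes were higher and 290 lower in M1, against 651 and 591, with 79 at 0 in M1 and 171 in P4, against 358 and 1014. With a minimum of 10 CPM, 596 were at 0 in M1 and 1827 in P4, and with no minimum 1156 in M1 and 3245 in P4. A call at a log2 difference of 1 gave 1301 higher and 1382 lower genes, and a call at 3 gave 369 and 307. For genes chosen by 20 CPM in both P1 and P5, an alternative added after the data were seen, 164 were at 0 in M1 only and 520 in P4 only. The 153 genes at 0 in both lines are not in these counts. The other alternatives kept the counts within 1.5 times. These were pseudocounts of 0.5 and 2, a median difference set to 0, CPM without mitochondrial, ribosomal, histone and small RNA rows, the highest row of each symbol, and, added after the data were seen, CPM without AY036118 and CT010467,1, which gave 729 higher and 560 lower genes. The median difference lay between -0.13 and 0.03 over all alternatives. Of the named genes that were called, none turned direction under any alternative. A call needs a difference of 2 and the alternatives moved the values by far less, so that this was almost fixed in advance. The calls of Mavs (-1.96), Zeb1 (-1.97) and Pam (1.95) ended with a pseudocount of 2, those of Mavs and Zeb1 also with the median set to 0 (-1.95 and -1.97) and without AY036118 and CT010467,1 (-1.94 and -1.96), and that of Rbpj (1.97) without mitochondrial, ribosomal, histone and small RNA rows, where Hes1, Canx (-2.04) and Met (-2.04) passed the threshold of 2. Sox4 passed it with the median set to 0. The medians of 4 lists (epithelial junction, ERK output, nuclear oxidative phosphorylation and histone and noncoding RNA rows) changed sign under at least 1 scaling and lay between -0.13 and 0.22. No paired analysis was possible because each line is 1 library and the number that M1 and P1 share names no common animal. Genes under about 50 CPM are limited most, since both libraries list genes of that level at 0.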

Other observations

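The M1 set with 0 in P4 and under 1 CPM in P1 and P5 held further genes outside the lists, which were named after their values were seen. They were picked from the set by hand, and no share over all genes stands beside them. Dynlrb2, a dynein light chain, had 35.00 CPM in M1, Armc4 33.4 CPM, Dnaic2 23.5 CPM and Tekt1 20.7 CPM, all listed at 0 in P4. Gnat1 and Grk1, which act in rod phototransduction, had 30.6 and 29.5 CPM in M1, and Pcdh15, a part of the hair cell tip link, had 24.6 CPM. The transcriptional repressor Bcl11a had 102 CPM and Dach1 80.8 CPM in M1, and the axonal adhesion molecule Cntn2 56.7 CPM. Besides the fixed markers, the myeloid genes Cybb, Myo1f, Clec12a and Mefv had 21.8, 24.9, 22.2 and 20.8 CPM in M1 and were listed at 0 in P4.

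By chromosome (GRCm38.p6), the median log2 difference of genes above 0 in both lines lay between -0.45 on chromosome 19 (227 genes) and 0.18 on chromosome 14 (187 genes). On chromosome 19, the median of M1 minus the mean of P1 and P5 was -0.06 and that of P4 minus the same mean 0.24. On chromosome 15 the difference of M1 and P4 was -0.27 (255 genes). Genes on a chromosome are not replicates, and these medians were not tested.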
